A study of Mus musculus with 6 samples.

Results

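A set of 8 genes of the Wnt and TCF1 axis and of T cell quiescence was examined in cells sorted as effector-memory CD8+ T cells and divided by S100A4 reporter expression. They were the T cell factors Tcf7 and Lef1, the Wnt feedback gene Axin2, and the regulators Bach2, Satb1, Bcl11b, Foxo1 and Foxp1. The genes were chosen by name, and all 8 were found, each as a single row, among the 55951 genes of the deposited table. The libraries came from the spleens of C57BL/6 mice carrying an S100A4-EGFP reporter, in a model of asthma induced by ovalbumin (OVA). Cells were sorted by an effector-memory gate that included CD3+ CD8+ CD4- CD44+ and then split into EGFP-negative cells (S100A4-negative, 3 libraries) and EGFP-positive cells (S100A4-positive, 3 libraries). Both groups thus share the reporter, the disease model and the gate, and the labels give them no further treatment. No age is given in the labels, nor whether the 3 samples of a population came from separate animals, so p-values measure only the spread between these samples.

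In the canonical Wnt pathway, secreted Wnt proteins bind Frizzled and LRP receptors, the destruction complex of AXIN, APC and GSK3 is held back, and beta-catenin enters the nucleus to bind TCF/LEF proteins on DNA. TCF1, the product of Tcf7, and LEF1 are the family members that T cells use; they are high in naive and memory T cells, and TCF1 is a defining factor of stem-like CD8+ T cells. FOXO1 keeps resting lymphocytes quiescent and drives genes of survival and lymph node homing, whereas BACH2, SATB1, BCL11B and FOXP1 restrain effector differentiation or maintain T cell identity.

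In the S100A4-positive libraries 7 of the 8 genes were between 3.43-fold and 9.75-fold lower than in the S100A4-negative libraries, by the ratio of mean FPKM (fragments per kilobase of transcript, scaled to the fragments of the library), and Foxp1 was 1.58-fold lower. Lef1 had the largest fold difference. All 8 passed the test across all genes, in which 62.3% of genes were called and 43.4% were called lower. General T cell genes were lower in the same libraries too, by a mean of -2.55 on the log2 scale. Relative to 12 such genes Tcf7, Lef1, Axin2, Satb1 and Bcl11b overlapped between the groups. Bach2, Foxo1 and Foxp1 lay higher in every S100A4-positive library on that scale, but so did 95.5% of all tested genes, and the median gene was higher by 2.20. The markers of the S100A4-positive libraries go against their label: macrophage genes such as Csf1r, at a mean of 1040 FPKM, stood far above Cd3e and Cd8a, at 23.5 and 22.6 FPKM. The S100A4-negative libraries were not free of such genes, as some plasma cell and neutrophil genes stood above Cd3e and Cd8a there. Jchain and S100a9 averaged 1632 and 1349 FPKM in them, and Cd3e and Cd8a 146 and 137 FPKM.

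The start regions of these genes were searched for the core of the site bound by TCF/LEF proteins (TCAAAG on either strand, CTTTGA being its reverse complement) and for a forkhead core (GTAAACA on either strand), since 2 of the 8 genes encode TCF/LEF proteins and 2 encode forkhead proteins. RefSeq (GRCm38.p6) gives 18 windows for the 8 genes, each from 250 bases before to 50 bases after a transcription start. The TCF/LEF core was present in 4 windows, of 4 genes, and is present in 16.0% of all 32851 such windows. The forkhead core was present in 1 window, and in 3.65% of all windows. All 5 windows with a match follow, 5′ to 3′ along the gene, with the matching letters in capitals. A match describes these letters only, and the gene-level values do not tell which start was used.
Lef1, chr3:131156044-131156343, + strand: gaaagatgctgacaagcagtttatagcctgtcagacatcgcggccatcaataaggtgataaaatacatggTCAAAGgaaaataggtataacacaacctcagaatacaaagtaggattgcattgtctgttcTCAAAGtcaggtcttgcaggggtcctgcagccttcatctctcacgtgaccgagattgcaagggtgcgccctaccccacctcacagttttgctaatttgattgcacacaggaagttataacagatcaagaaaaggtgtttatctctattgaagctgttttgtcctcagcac
Bach2, chr4:32417185-32417484, + strand: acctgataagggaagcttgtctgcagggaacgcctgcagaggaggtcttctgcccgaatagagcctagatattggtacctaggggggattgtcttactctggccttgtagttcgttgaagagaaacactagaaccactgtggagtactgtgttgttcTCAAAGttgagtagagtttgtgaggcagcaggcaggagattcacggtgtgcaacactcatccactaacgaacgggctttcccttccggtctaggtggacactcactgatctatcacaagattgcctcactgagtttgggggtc
Bcl11b, chr12:108003365-108003664, - strand: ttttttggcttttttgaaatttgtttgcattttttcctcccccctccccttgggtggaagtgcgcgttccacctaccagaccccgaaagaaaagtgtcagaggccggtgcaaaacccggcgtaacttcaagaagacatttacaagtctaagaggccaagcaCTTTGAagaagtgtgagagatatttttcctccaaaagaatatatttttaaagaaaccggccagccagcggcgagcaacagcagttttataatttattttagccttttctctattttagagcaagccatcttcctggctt
Foxp1, chr6:99266466-99266765, - strand: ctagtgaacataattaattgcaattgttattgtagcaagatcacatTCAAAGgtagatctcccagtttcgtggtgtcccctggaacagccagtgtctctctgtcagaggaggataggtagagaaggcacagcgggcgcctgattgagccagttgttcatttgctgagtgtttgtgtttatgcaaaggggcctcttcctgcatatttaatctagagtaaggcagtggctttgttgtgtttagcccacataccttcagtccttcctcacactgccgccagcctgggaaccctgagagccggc
Tcf7, chr11:52282546-52282845, - strand: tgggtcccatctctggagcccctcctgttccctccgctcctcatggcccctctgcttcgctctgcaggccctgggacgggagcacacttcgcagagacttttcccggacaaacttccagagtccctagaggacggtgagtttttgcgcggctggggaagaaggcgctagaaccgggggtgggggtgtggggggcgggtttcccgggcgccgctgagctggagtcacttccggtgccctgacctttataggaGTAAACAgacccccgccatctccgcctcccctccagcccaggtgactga
In the Lef1 window, which lies inside the gene at its most downstream listed start, the TCF/LEF core begins at bases -180 and -120 from the start. In Bach2 it begins at -93, in Bcl11b at -89 on the opposite strand, and in the second listed start of Foxp1 at -204. The Bach2, Foxp1 and Tcf7 windows also lie inside their genes. Bach2 runs from 32238804 to 32586108, and on the - strand Foxp1 runs from 98925338 to 99522721 and Tcf7 from 52252371 to 52283014. The forkhead core of Tcf7 begins at base 2 after the start. The single Axin2 and Foxo1 windows and the 5 Satb1 windows held neither core.

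Tcf7, which encodes TCF1, was the most highly expressed of the 8 genes in S100A4-negative cells. Its FPKM was 585, 366 and 312 in S100A4-negative replicates 1 to 3 and 63.2, 85.7 and 88.4 in S100A4-positive replicates 1 to 3. Every S100A4-negative library lay above every S100A4-positive library, and S100A4-negative replicate 1 was the highest of all. The group means were 421 ± 144 and 79.1 ± 13.8 FPKM (SD, n = 3), from 1907 to 17687 reads per library. The log2 fold change, which takes the S100A4-positive mean less the S100A4-negative one in log2(FPKM + 1) here and below, was -2.36 (adjusted p = 0.000266 by limma, SE 0.25). In bulk samples such as these, fewer cells of a type and less RNA per cell cannot be told apart. Tcf7 (ENSMUSG00000000782) lies on chromosome 11, 52252371 to 52283014 of GRCm38, on the - strand, and shares no exon bases with another annotated gene.

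Lef1 encodes the other TCF/LEF protein of T cells and showed the largest fold change and the largest spread. Its FPKM was 75.8, 25.9 and 37.3 in S100A4-negative replicates 1 to 3, a coefficient of variation of 56.4%. In the S100A4-positive replicates it was 4.84, 4.78 and 4.65, a coefficient of variation of 1.98%. The groups did not overlap, and the S100A4-positive libraries were nearly equal to each other whereas S100A4-negative replicate 1 stood far above the other two. The S100A4-positive values rest on 174 to 200 reads per library. Counting error at that depth exceeds a spread of 1.98%, so the near equality is no trait of the gene. The log2 fold change was -2.90 (adjusted p = 0.000436 by limma, SE 0.34), or -2.48 without S100A4-negative replicate 1. Lef1 (ENSMUSG00000027985) lies on chromosome 3, 131110471 to 131224356. It shares 13.7% of its exon bases with Gm43352 on the opposite strand, which was at most 0.384 FPKM in any library.

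Axin2 encodes a scaffold of the beta-catenin destruction complex and is a direct target of beta-catenin and TCF, widely used as a readout of the pathway. Its FPKM was 31.6, 23.8 and 21.5 in the S100A4-negative replicates and 4.86, 5.20 and 5.15 in the S100A4-positive replicates. The groups were well separated, and the S100A4-positive libraries again lay close together. They held 132 to 152 reads each, where counting error likewise exceeds their spread. The log2 fold change was -2.11 (adjusted p = 8.03e-05 by limma, SE 0.16), and the reads behind it numbered 132 to 911 per library, the fewest of the 8 genes at the low end. Axin2 (ENSMUSG00000000142) lies on chromosome 11, 108920349 to 108950783.

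Bcl11b encodes a zinc finger factor that T cells need for commitment and for keeping their identity. Its FPKM was 48.3, 44.6 and 36.3 in the S100A4-negative replicates and 6.82, 6.26 and 8.84 in the S100A4-positive replicates, with no overlap. The log2 fold change was -2.41 (adjusted p = 5.50e-05 by limma, SE 0.17). Satb1, a chromatin organiser of T cells, was at 181, 121 and 152 FPKM in the S100A4-negative and 30.6, 46.6 and 34.2 in the S100A4-positive replicates. Its log2 fold change was -2.001 (adjusted p = 0.000228 by limma, SE 0.20). Each group kept its own range in both genes.

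Bach2, a repressor that restrains effector genes in T cells and plasma cell differentiation in B cells, was at 54.1, 28.1 and 42.5 FPKM in the S100A4-negative replicates. In the S100A4-positive replicates it was at 12.8, 11.6 and 9.93, below all of them, and the log2 fold change was -1.73 (adjusted p = 0.000759 by limma, SE 0.23). It shares 5.40% of its exon bases with Bach2os on the opposite strand, which was at 1.00 to 3.97 FPKM across the libraries. Bach2, Satb1 and Lef1 had the same order of S100A4-negative libraries, replicate 1 highest and replicate 2 lowest.

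Foxo1, the forkhead factor that maintains quiescence, was the most even gene of the 8 in S100A4-negative libraries, at 34.1, 31.9 and 34.4 FPKM. In the S100A4-positive replicates it was at 9.47, 10.3 and 9.46. The spread was 4.12% and 5.12% of the mean in the respective groups, and the log2 fold change of -1.68 (SE 0.11) had the smallest adjusted p of the 8 genes (limma adjusted p = 4.61e-05).

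Foxp1, a forkhead repressor needed for quiescence of naive T cells and also expressed widely outside the T lineage, changed least. Its FPKM was 202, 158 and 214 in the S100A4-negative replicates and 124, 136 and 103 in the S100A4-positive replicates. The ranges did not overlap but came close, from 158 down to 136. The log2 fold change was -0.65 (adjusted p = 0.0106 by limma, SE 0.16), and 32.3% of all tested genes had a fold change at or below it, against 1.26% for Lef1 and 5.29% for Foxo1. Foxp1 did not pass after median-of-ratios rescaling or with voom on recovered reads (log2 fold change -0.27 in both, limma adjusted p = 0.203 and 0.204). In the authors' deposited table it is not called either (log2 fold change -0.26, adjusted p = 0.650), whereas the other 7 genes are, with log2 fold changes from -1.39 for Foxo1 to -2.90 for Lef1.

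**Figure D1:**
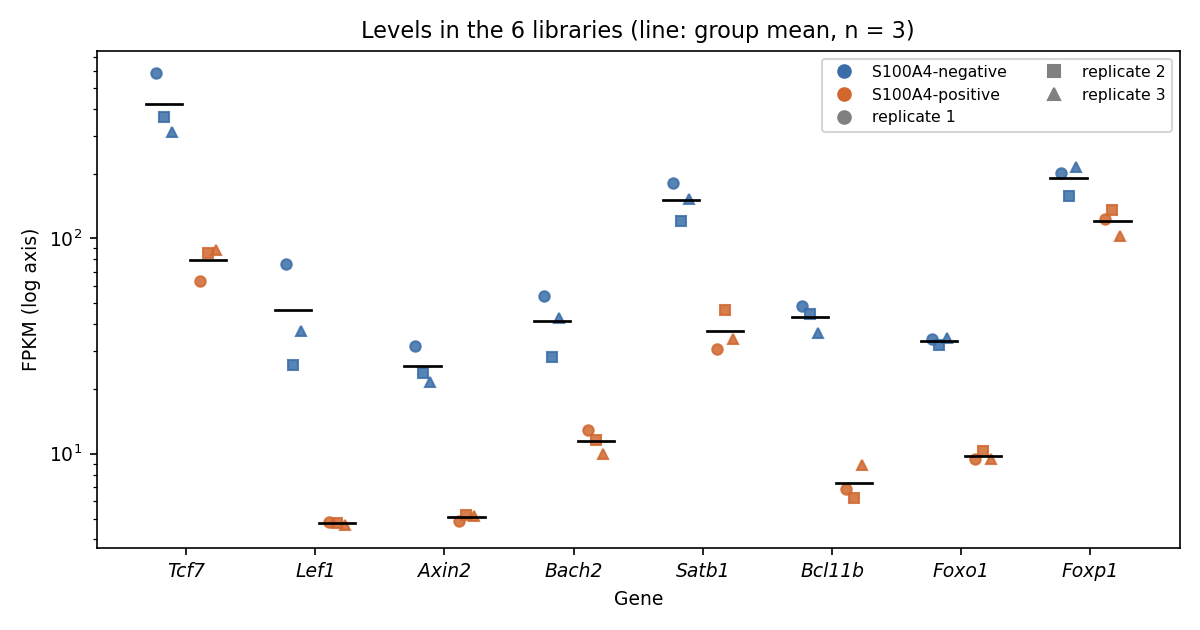
FPKM of the 8 genes (log axis) in each of the 6 libraries, with marker shape giving the replicate and a line at each group mean (n = 3). Every S100A4-negative point of a gene lies above every S100A4-positive point; the gap is narrowest for Foxp1, between 158 and 136 FPKM.

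All 8 genes had groups that did not overlap, with the S100A4-positive libraries lower, which was also the case for 49.1% of the 13241 genes tested; 70.0% had groups apart in either direction. For a single gene the exact two-sided permutation test of 3 against 3 libraries gave p = 0.1, the smallest it can give. The median log2 fold change of the 8 genes was -2.06, and that of all tested genes was -0.36. Median-of-ratios rescaling moved the median of all genes by 0.34, to -0.019, and that of the 8 genes to -1.69. Under that scaling 7 of the 8 were called lower, as were 24.3% of all tested genes (27.7% were higher, 52.0% called in all). With voom it was again 7 of the 8, beside 23.8% of all tested genes lower, 28.1% higher and 51.9% called in all.

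**Figure D2:**
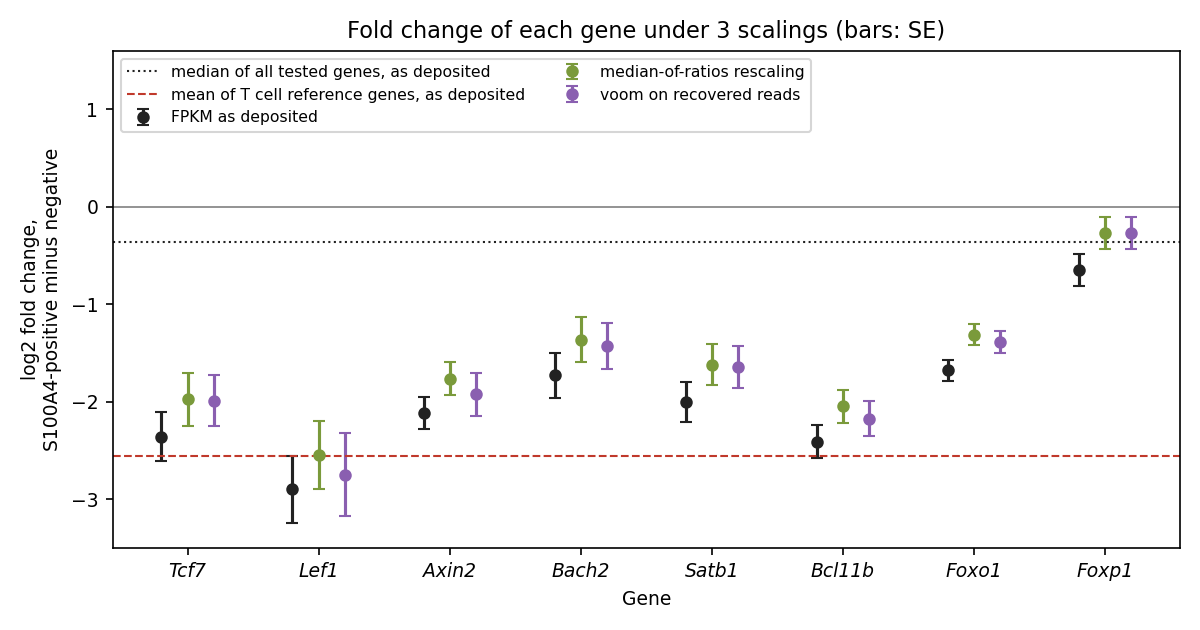
Log2 fold change (S100A4-positive minus S100A4-negative, bars SE) of each gene from the deposited FPKM, from median-of-ratios rescaled FPKM and from voom on recovered reads. The dotted line marks the median of all tested genes (-0.36) and the dashed line the mean change of the 12 T cell reference genes (-2.55); Foxp1 lies near the first and Lef1, Bcl11b and Tcf7 near the second.

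The genes traded places in their order of levels. In S100A4-negative libraries Tcf7 was highest, followed by Foxp1, Satb1, Lef1, Bcl11b, Bach2, Foxo1 and Axin2. Lef1, Bcl11b, Bach2 and Foxo1, between 33.4 and 46.4 FPKM on average, did not keep the same order in every library, and the ranges of Foxp1 and Satb1 overlapped. In S100A4-positive libraries Foxp1 was highest, followed by Tcf7, Satb1, Bach2, Foxo1, Bcl11b, Axin2 and Lef1, and this order held within each library. Bach2 and Foxo1 were the only neighbours there whose ranges overlapped. Of the summed FPKM of the 8 genes, Foxp1 made up 16.6% to 25.2% in S100A4-negative libraries and 39.1% to 48.2% in S100A4-positive ones. Tcf7 made up 36.7% to 48.3% and 24.7% to 33.5%, and Lef1 3.24% to 6.26% and 1.56% to 1.89%. By the exact two-sided permutation test p was 0.1 for each of these 3 shares, which is its minimum, and 1.0 for the shares of Bach2 and Foxo1. The sum itself was 799 to 1211 FPKM and 256 to 306 FPKM.

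The ratio of Lef1 to Tcf7, both per length, was 0.130, 0.0708 and 0.120 in the S100A4-negative and 0.0766, 0.0558 and 0.0526 in the S100A4-positive libraries. The groups overlapped (exact two-sided permutation p = 0.2, where the least possible is 0.1, so a difference is not excluded). The ratio of Foxp1 to Tcf7 was 0.345, 0.431 and 0.686 against 1.96, 1.59 and 1.17, without overlap (exact two-sided permutation p = 0.1).

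The sorted cells were checked against genes that mark their lineage. A set of 12 genes of T cells in general (among them Cd3d, Cd3e, Cd3g, Cd247, Cd2, Cd5, Cd6, Lck, Zap70, Lat and Thy1), called T cell reference genes here, were present in every library, and 12 of 12 were called lower, with log2 fold changes from -2.83 to -2.20. Their summed FPKM was 2372 to 2996 in S100A4-negative libraries and 402 to 533 in S100A4-positive ones. Cd8a was at 187, 85.2 and 139 FPKM in the S100A4-negative replicates and 13.6, 22.4 and 31.9 in the S100A4-positive ones. Cd4, against which the cells were sorted, was at 67.2, 337 and 111 and at 42.5, 52.4 and 66.6 FPKM, above Cd8a in every S100A4-positive library and in S100A4-negative replicate 2. S100a4 itself, the reporter's gene, was at 0 to 0.405 and 1.27 to 4.02 FPKM. All 16 monocyte and macrophage markers were called higher, 19.0% of all tested genes being so, with a summed FPKM of 481 to 685 and 6161 to 7036. Lyz2 and Csf1r, a lysozyme and a receptor of macrophages, were the most abundant of these, and none of the 16 was at 0 in all libraries. The count includes Fcgr1, Mertk and Ms4a7, which averaged under 1 FPKM in S100A4-negative libraries and so passed the filter only through the group where they were high. Of 8 dendritic cell markers, led by Itgax and Flt3, 7 were called higher and 1 was not called, with sums of 48.0 to 84.5 and 360.4 to 513 FPKM. Xcr1 and Cd209a, counted among the 7, likewise passed the filter only through the S100A4-positive libraries.

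Markers of other blood cells were measured as well, since B cells too express Bach2, Foxo1 and Foxp1. Beside the counts that follow, 43.4% of all tested genes were called lower and 19.0% higher. After median-of-ratios rescaling these shares were 24.3% and 27.7%. Of 9 B cell markers, led by Cd79a and Pax5, 7 were called lower and 2 were not called. After median-of-ratios rescaling 3 of the 9 were called lower. Their summed FPKM was 536, 1031 and 1573 in S100A4-negative replicates 1 to 3 and 288, 331 and 482 in the S100A4-positive replicates. Of 6 plasma cell markers, led by Jchain and Xbp1, 6 were called lower, or 4 after median-of-ratios rescaling and with voom (Xbp1 not among them), with sums of 1184 to 2649 and 277 to 581 FPKM. Of 9 neutrophil markers, led by S100a9 and Ltf, 8 were called lower and 1 higher, with sums of 3335 to 4934 and 515 to 1888 FPKM. Of the 3 natural killer cell markers tested, Tyrobp, which myeloid cells also express, was higher and 2 were lower, Klre1 among them; after median-of-ratios rescaling 1 was lower. Summed FPKM was 63.1 to 115 and 746 to 902, nearly all of it Tyrobp; without Tyrobp it was 4.72 to 9.59 and 1.25 to 3.44. None of 5 red cell markers tested was called by limma, with Hbb-bs and Hba-a1 the most abundant; 0 of the 5 had an unadjusted p under 0.05, and voom called 0. Their sums were 52.8 to 264 and 50.4 to 235 FPKM. The part of these cells in the levels of the 8 genes was not tested.

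Each gene was then set against the T cell reference genes within its own library, by subtracting their mean log2(FPKM + 1), which averaged 7.69 ± 0.18 over the S100A4-negative libraries and 5.13 ± 0.23 over the S100A4-positive ones (SD, n = 3). A difference in such a ratio shows only that the gene and the reference changed unequally. The SE given with each relative difference comes from the limma fit over all genes. It was nearly the same for all 8 genes, from 0.27 to 0.29, and does not measure the spread of a single gene. The SDs, where given, show that spread. Relative to the reference, Tcf7 stood at 0.98 ± 0.41 and 1.18 ± 0.20, a difference of 0.19 (SE 0.28, exact two-sided permutation p = 0.6). Bcl11b stood at -2.24 ± 0.11 and -2.09 ± 0.089, a difference of 0.14 (SE 0.28, exact permutation p = 0.2). For both genes the relative levels of the groups overlapped.

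Lef1 stood at -2.26 ± 0.80 and -2.61 ± 0.25 relative to the reference, a difference of -0.35 (SE 0.29, exact two-sided permutation p = 0.5). That difference rested on single libraries, being 0.046 without S100A4-negative replicate 1 and -0.76 without S100A4-negative replicate 2. Axin2 differed by 0.44 (SE 0.29, exact permutation p = 0.2). Satb1 differed by 0.55 (SE 0.27, exact permutation p = 0.3). The groups overlapped for all 3 genes.

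Bach2, Foxo1 and Foxp1 were higher relative to the reference in every S100A4-positive library, each with p = 0.1 by the exact two-sided permutation test, its minimum. The same was true of 95.5% of all tested genes, whose median relative difference was 2.20, so being higher on this scale is no trait of these genes. A larger relative difference was found for 95.0% of tested genes than for Bach2, 94.7% than for Foxo1 and 67.7% than for Foxp1. Bach2 stood at -1.96, -2.97 and -2.04 in S100A4-negative and -1.18, -1.38 and -1.94 in S100A4-positive replicates 1 to 3. Its groups were only just apart. The difference of 0.82 (SE 0.28) was 0.50 without S100A4-negative replicate 2 (adjusted p = 0.136 by limma), and with the CD3 chains alone as the reference the Bach2 groups overlapped (0.73, exact permutation p = 0.3). Foxo1 stood at -2.61, -2.80 and -2.34 against -1.58, -1.54 and -2.003, a difference of 0.87 (SE 0.28). Foxp1 stood at -0.080, -0.53 and 0.27 against 1.99, 2.06 and 1.31, a difference of 1.90 (SE 0.28), the largest relative difference of the 8 genes.

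The fit of these relative values across all genes called Bach2, Foxo1, Foxp1 and Satb1 higher (limma adjusted p = 0.00378, 0.00217, 3.14e-11 and 0.0461). It did not call Tcf7, Lef1, Axin2 or Bcl11b (limma adjusted p = 0.495, 0.234, 0.133 and 0.613). In that fit 97.1% of all genes were called and 96.2% were called higher. Its p-values are too small, because every gene shares the error of the same reference, so the exact tests above are the ones to read.

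**Figure D3:**
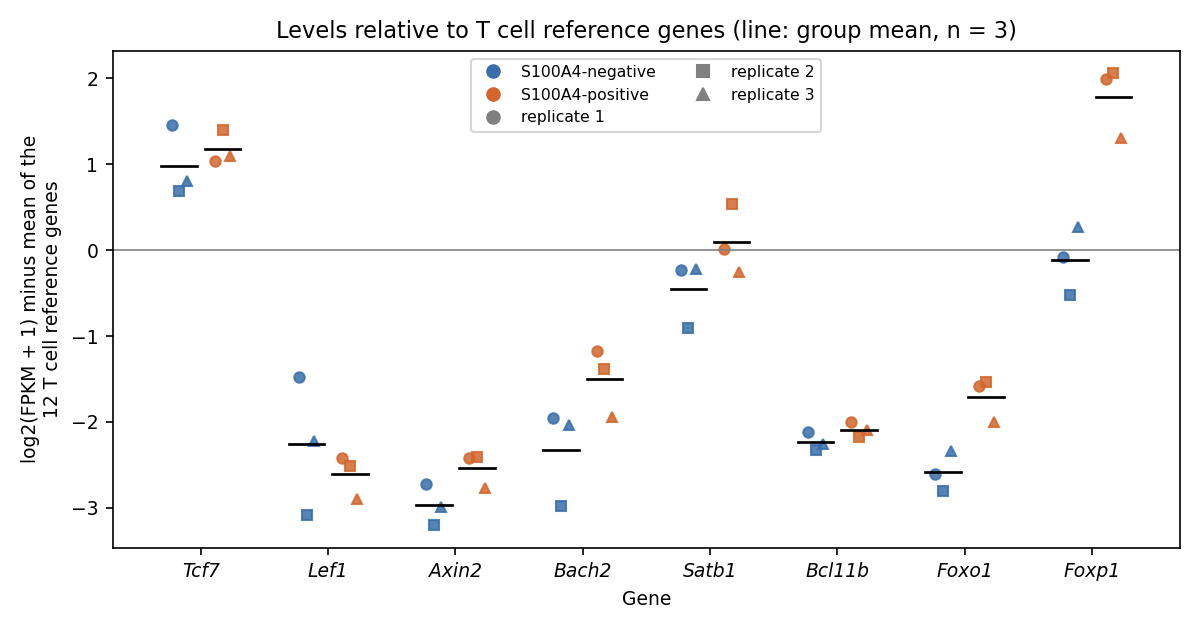
Log2(FPKM + 1) of each gene minus the mean of the 12 T cell reference genes in the same library, with marker shape giving the replicate and a line at each group mean (n = 3). The groups overlap for Tcf7, Lef1, Axin2, Satb1 and Bcl11b, and the S100A4-positive points lie above all S100A4-negative points for Bach2, Foxo1 and Foxp1.

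Paralogs of the 8 genes showed other patterns. Tcf7l2, the TCF family member of many non-lymphoid cells, averaged 2.12 ± 0.66 FPKM over the S100A4-negative libraries and 24.4 ± 2.64 over the S100A4-positive ones, a log2 fold change of 3.04 (adjusted p = 3.60e-05 by limma, SE 0.18). The ratio of Lef1 to Tcf7l2 was 41.4, 15.8 and 13.001 in the S100A4-negative and 0.181, 0.222 and 0.186 in the S100A4-positive libraries. The more abundant TCF of this pair thus differed between the groups, while Tcf7 stayed above Tcf7l2 in every library, at 109 to 319 times its FPKM in S100A4-negative libraries and 2.37 to 3.98 times in S100A4-positive ones.

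Bach1, a repressor of haem-responsive genes that is abundant in myeloid cells, was at 29.5 ± 3.23 and 136 ± 31.9 FPKM, a log2 fold change of 2.15 (adjusted p = 0.000104 by limma, SE 0.18). The ratio of Bach2 to Bach1 was 1.79, 1.08 and 1.32 in the S100A4-negative and 0.0743, 0.0953 and 0.0870 in the S100A4-positive libraries. Bach2 was therefore the higher of the pair in each S100A4-negative library and the lower in each S100A4-positive library (p = 0.1 by the exact two-sided permutation test, the least it can give).

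Axin1, the constitutive counterpart of Axin2, had a log2 fold change of -0.68 (adjusted p = 0.00430 by limma, SE 0.14), and did not pass after median-of-ratios rescaling or with voom. The ratio of Axin2 to Axin1 went from 0.303 to 0.371 in S100A4-negative libraries to 0.0930 to 0.121 in S100A4-positive libraries, so the feedback gene was lower by more than its counterpart in each library. Bcl11a, a B cell and dendritic cell factor, was at 7.86 ± 4.65 and 5.92 ± 2.33 FPKM and was not called (limma adjusted p = 0.532). Bcl11b was 2.75 to 10.7 times Bcl11a in S100A4-negative libraries and 1.06 to 1.69 times in S100A4-positive ones.

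Among the FOXO genes Foxo3 was not called (log2 fold change -0.47, limma adjusted p = 0.0959). Without S100A4-positive replicate 1 it was called (-0.70, limma adjusted p = 0.00827), and without S100A4-positive replicate 2 it was at -0.28. Foxo4 was lower by less than Foxo1 (-1.001, adjusted p = 0.00339 by limma, SE 0.19). The ratio of Foxo1 to Foxo3 was 0.726 to 0.875 in S100A4-negative libraries and 0.230 to 0.463 in S100A4-positive ones, without overlap. Foxp4 went the other way from Foxp1, from 62.2 ± 3.62 to 91.0 ± 10.96 FPKM (log2 fold change 0.54, adjusted p = 0.00829 by limma, SE 0.13). Foxp3, the factor of regulatory T cells, was at 16.2 ± 3.82 and 9.30 ± 2.19 FPKM. Its call (limma adjusted p = 0.0247) was lost after median-of-ratios rescaling, after quantile normalization, with voom, without a filter, and without S100A4-negative replicate 2 or 3 or S100A4-positive replicate 2. Of the 12 paralogs 8 passed the filter, with 3 called higher and 3 lower, beside 19.0% and 43.4% of all tested genes. After median-of-ratios rescaling 3 of the 8 were higher and 1 lower, beside 27.7% and 24.3% of all tested genes. Tcf7l1, Foxo6 and Foxp2 were among those that averaged under 1 FPKM and were not tested.

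**Figure D4:**
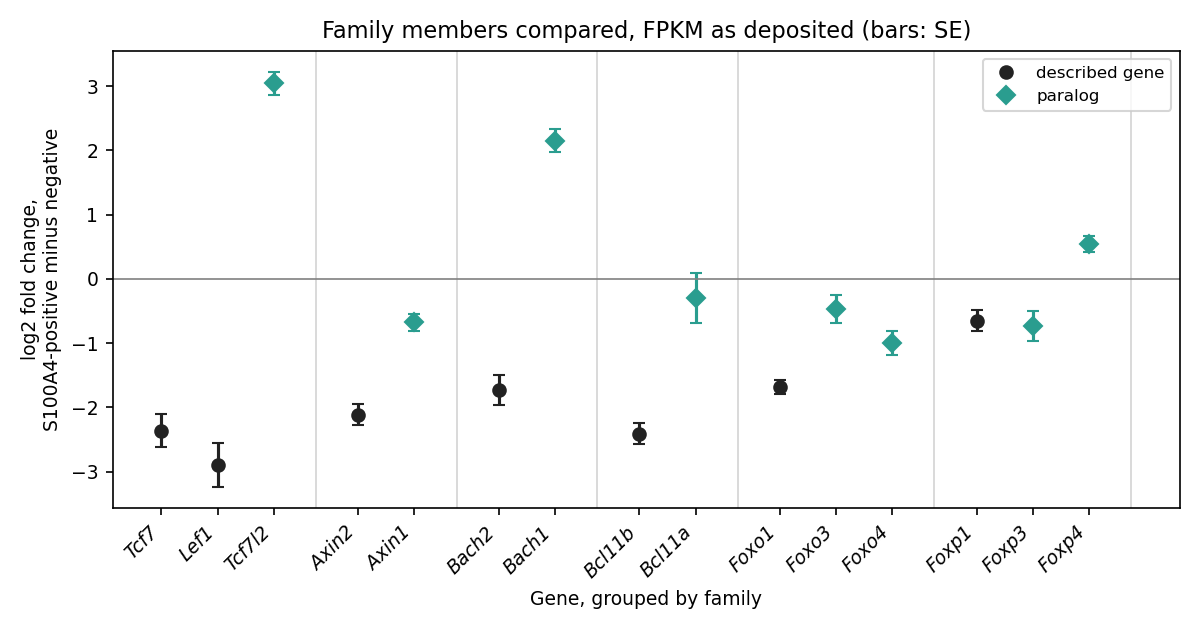
Log2 fold change (S100A4-positive minus S100A4-negative, FPKM as deposited, bars SE) of each described gene (circles) beside its paralogs that passed the filter (diamonds), grouped by family. Tcf7l2 (3.04) and Bach1 (2.15) lie above 0 while Tcf7, Lef1 and Bach2 lie below it.

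The upstream Wnt pathway was measured through 4 lists. Of 19 Wnt ligand genes only Wnt6 and Wnt11 reached a mean of 1 FPKM over the 6 libraries, and both did so only through the S100A4-positive libraries; they were at 3.05 ± 0.805 and 6.27 ± 3.12 FPKM there and at 0.0245 ± 0.021 and 0.445 ± 0.049 in S100A4-negative libraries. Wnt10a and Wnt10b, below that filter, were at 1.32 ± 0.67 and 1.01 ± 0.31 FPKM in S100A4-negative libraries and 0.249 ± 0.018 and 0.658 ± 0.49 in S100A4-positive ones. Wnt2, Wnt3a and Wnt7a were at 0 in every library. Of 15 receptor and secretion genes 7 were tested, with 4 called higher, 1 lower and 2 not called. Of all tested genes 19.0% were called higher and 43.4% lower. Fzd7 and Fzd1, both Frizzled receptors, rose to 10.3 ± 2.93 and 4.22 ± 0.84 FPKM, from 0.277 ± 0.014 and 0.128 ± 0.038 in S100A4-negative libraries, so they too passed the filter only through the higher group. Lrp5, a Wnt coreceptor, rose from 1.68 ± 0.057 to 11.8 ± 2.59 FPKM, and Wls, which carries Wnt proteins to the cell surface, rose by 0.41 on the log2 scale. Ryk, a Wnt-binding kinase-like receptor, fell from 7.31 ± 1.89 to 1.39 ± 0.17 FPKM (log2 fold change -1.78, limma adjusted p = 0.000332).

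Among genes that carry the signal to the nucleus, Ctnnb1, which encodes beta-catenin, was at 137 ± 9.30 and 151 ± 21.3 FPKM and was not called (limma adjusted p = 0.425). Of 16 tested genes of this step 1 was called higher, 8 lower and 7 were not called, beside 19.0% higher and 43.4% lower of all tested genes. The median log2 fold change of the 16 was -0.37, beside -0.36 for all tested genes. After median-of-ratios rescaling 5 of the 16 were higher and 1 lower, beside 27.7% and 24.3% of all tested genes, and the median of the 16 turned to 0.0064. Bcl9l, a beta-catenin coactivator, had the largest change of these (-1.56, adjusted p = 0.000681 by limma, SE 0.21), going from 40.6 ± 12.2 to 12.7 ± 0.74 FPKM. Ctnnbip1, an inhibitor of beta-catenin, rose by 0.62 (limma adjusted p = 0.0104), and Apc, of the destruction complex, was at -0.54 (limma adjusted p = 0.0225), a call lost after median-of-ratios rescaling, after quantile normalization, with voom, and without any 1 of S100A4-negative replicates 1 and 3 and S100A4-positive replicates 2 and 3. Of 5 tested TLE corepressors, which TCF proteins recruit, Tle1 rose by 1.46 (limma adjusted p = 0.000773). Tle5 and Tle2 were called lower (-0.71 and -0.53), but neither after median-of-ratios rescaling, and Tle3 and Tle4 were not called.

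Of 12 Wnt feedback and target genes 4 were tested, with 3 called lower and 1 higher, beside 43.4% and 19.0% of all tested genes. The median of the list was -1.46, between that of all tested genes (-0.36) and that of the T cell reference genes (-2.61). Znrf3 and Rnf43, membrane ubiquitin ligases that remove Frizzled receptors and are induced by Wnt signals like Axin2, fell by 1.72 and 1.47 on the log2 scale (limma adjusted p = 0.00243 and 0.00142). Myc fell by 1.45, from 83.2 ± 15.7 to 29.5 ± 2.41 FPKM. Ccnd1, the gene of cyclin D1, rose by 2.15, from 2.04 ± 1.11 to 13.04 ± 6.33 FPKM. These 4 calls and directions were the same after median-of-ratios rescaling, quantile normalization and with voom. Relative to the T cell reference genes Znrf3, Rnf43, Myc and Ccnd1 differed by 0.83, 1.09, 1.10 and 4.71, beside a median of 2.20 for all tested genes. Myc and Ccnd1 answer to many other signals.

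Of 12 tested target genes of FOXO1, 8 were called lower, 2 higher and 2 were not called, beside 43.4% of all tested genes called lower. After median-of-ratios rescaling 7 were lower and 2 higher, beside 24.3% of all genes lower. The median of the list was -1.12, between that of all tested genes (-0.36) and that of the T cell reference genes (-2.61). Sesn3, a stress-induced regulator of growth signalling, fell by 2.24 from 151 ± 11.9 to 31.4 ± 3.68 FPKM, and S1pr1, the receptor for lymph node egress, fell by 2.17. Pik3ip1, an inhibitor of PI3 kinase in T cells, fell by 1.83. Gadd45a, a stress gene, rose by 2.47, and Bcl6 by 1.18. Ccr7, a homing receptor that dendritic cells also carry, was at 302 ± 38.1 and 358 ± 189 FPKM (limma adjusted p = 0.913).

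Of 9 tested general quiescence genes 1 was called higher, 2 lower and 6 were not called, beside 19.0% higher and 43.4% lower of all tested genes. Their median was -0.11, beside -0.36 for all tested genes. After median-of-ratios rescaling 3 of the 9 were higher and 1 lower, beside 27.7% and 24.3% of all tested genes. Their median turned to 0.27, beside -0.019 for all tested genes. Tob1 and Tob2, antiproliferative factors of resting T cells, fell by 0.84 and 0.85 (limma adjusted p = 0.00786 and 0.00176), the first not after rescaling. Klf4 rose by 1.59, and Btg1, an antiproliferative gene of most resting cells, was at 481 ± 14.4 and 514 ± 89.1 FPKM.

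Of 12 genes that accompany TCF1 in stem-like and central-memory T cells, 8 were called lower, 2 higher and 2 were not called, or 7 lower and 2 higher after median-of-ratios rescaling; the shares of all genes called lower were again 43.4% and 24.3%. The median of -1.41 lay between those of all tested genes and of the T cell reference genes. Log2 fold changes were -2.65 for Dapl1, -2.36 for Myb and -1.93 for Xcl1, a chemokine gene of stem-like CD8+ T cells. Slamf6, a surface marker of those cells, had a log2 fold change of -2.38 and went from 89.7 ± 10.8 to 16.7 ± 4.63 FPKM. Id3 rose, from 27.9 ± 7.56 to 93.7 ± 4.76 FPKM, as did Bcl6; splenic macrophages and dendritic cells express Id3 and Bcl6 too, and their part was not tested. Transcription factors of effector T cells went both ways, with 3 of 8 called higher, 4 lower and 1 not called. Of all tested genes 19.0% were called higher and 43.4% lower. After median-of-ratios rescaling 3 factors were higher and 3 lower, beside 27.7% and 24.3% of all genes. The median of the 8 factors was -0.33, beside -0.36 for all tested genes. Zeb2 and Id2 rose by 3.51 and 1.95, and Eomes and Tbx21 fell by 2.89 and 2.41. Relative to the T cell reference genes Zeb2 and Id2 differed by 6.06 and 4.50, and Eomes and Tbx21 by -0.33 and 0.15. The median of all tested genes was 2.20 on that scale. The part of macrophages and dendritic cells in the levels of Zeb2 and Id2 was not tested.

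**Figure D5:**
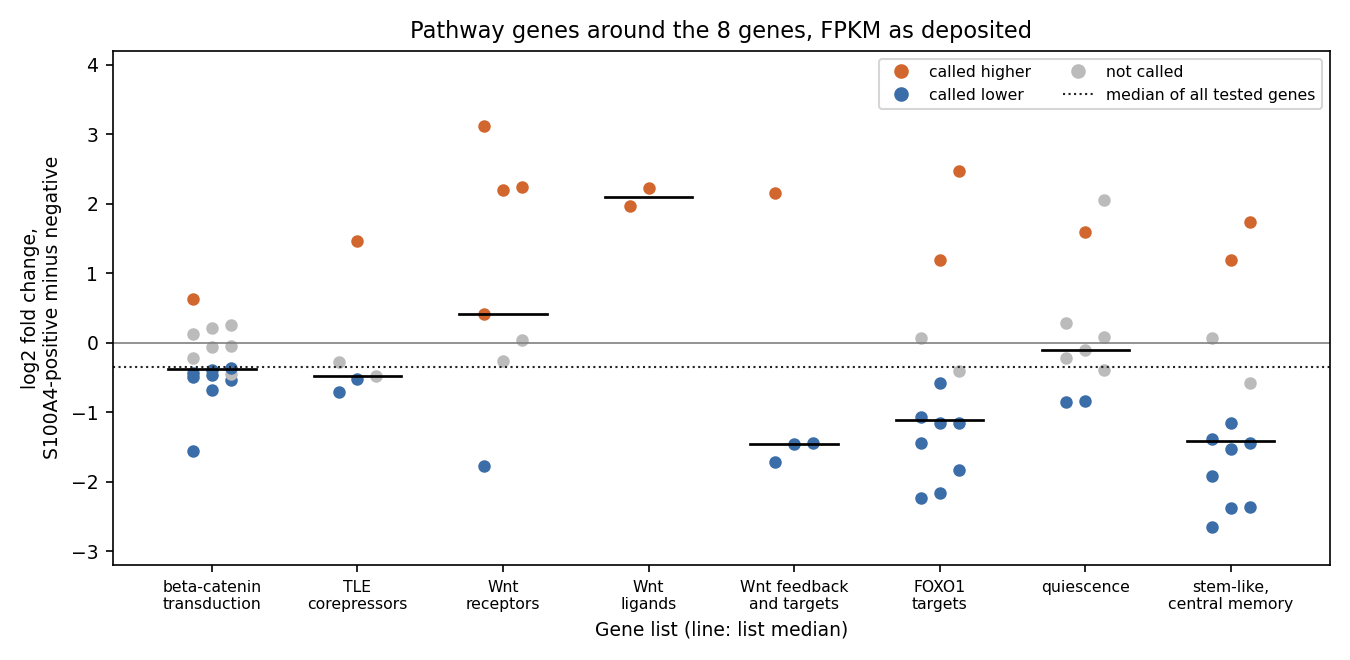
Log2 fold change (S100A4-positive minus S100A4-negative, FPKM as deposited) of each tested gene of 8 pathway lists, coloured by its call, with a line at each list's median and a dotted line at the median of all tested genes (-0.36). The FOXO1 target and the stem-like and central-memory lists have medians of -1.12 and -1.41, and the beta-catenin list sits at the median of all genes.

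The genes nearest to each of the 8 in pattern were found by the Euclidean distance between log2(FPKM + 1) profiles over the 6 libraries, after subtracting each gene's own mean, among 10864 protein-coding genes. The 6 points share their libraries and groups, so this is a description. Tcf7 was nearest to F2rl1, Gramd3 and Celsr1 (distances 0.433 to 0.450), and Lef1 to Tdrp, Btbd11 and Slc28a2b (0.366 to 0.599). Axin2 was nearest to Il2rb, a subunit of the interleukin-2 and interleukin-15 receptors, Grap2, an adaptor of T cell receptor signalling, and Ccdc92 (0.144 to 0.181). Bcl11b was nearest to Celsr1, Faah and Zap70, the kinase that binds the T cell receptor complex (0.191 to 0.251). Bach2 was nearest to Cracr2a, Card6 and Snai3 (0.340 to 0.354), and Satb1 to Rundc3b, Pde3b and Zfp827 (0.340 to 0.352). Foxo1 was nearest to Grap, Zfyve28 and Crbn (0.140 to 0.213). Foxp1 was nearest to Nup160, a nuclear pore gene, Yars, a tRNA synthetase gene, and Ctdspl2 (0.141 to 0.151). Among the 8 themselves Tcf7 and Axin2 were closest (0.513), and Lef1 and Foxp1 were furthest apart (2.91).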

How the data were processed

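RNA was measured in 6 libraries, 3 per group, from sorted mouse spleen cells; columns were matched to samples by their titles. The authors deposited FPKM per gene and a table of their own comparison. Per the file headers that table holds a normalized signal averaged over the libraries of a group, the log2 fold change, and p-values before and after adjustment, and it names no test. The submitters' processing notes name HISAT2 2.1.0, Cufflinks, Cuffnorm and mm10; the counting and strand settings are not given in the sources used here. Whole reads were recovered from the deposited FPKM and group means, with 100% of 135018 values above 0 within 0.02 of a whole number, and gave 14925260 to 18660188 reads per library. Overlapping genes therefore cannot be separated by strand.

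The 13241 genes that averaged 1 FPKM or more were tested on log2(FPKM + 1) by limma 3.58.1 in R 4.3.3, with the prior variance following the mean, Benjamini-Hochberg adjustment over all of them and a threshold of 0.05. The fit relative to the T cell reference genes had 790.5 prior degrees of freedom, against 3.38 in the main one. Python 3.11.15, scipy 1.17.1 and matplotlib 3.10.9 served for the rest, and the fit was tested on simulated data. Alternatives were other scalings, pseudocounts, filters, weights, a replicate block, voom and leaving out each library. The genes and lists were chosen with earlier results of these data known. Named from each pathway list are up to 4 called genes with the largest change, and from each marker list the 2 most abundant; other list genes named (Ctnnb1, Tle3, Tle4, Wls, Wnt10a, Wnt10b, Bcl6, Ccr7, Btg1, Id3) were chosen after their values were seen. Coordinates are from GENCODE M21 (GRCm38, the build mm10 names) and sequences from RefSeq GRCm38.p6; Aes was matched to the table's Tle5 by gene identifier. Some list genes are not reported here by name.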

Additional observations from a re-analysis of the deposited data

How the results depend on the processing

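Over the 15 alternatives all 8 genes kept a negative log2 fold change, and the number called was 7 or 8. Foxp1 lost its call after median-of-ratios rescaling (-0.27) and with voom on recovered reads (-0.27), both of which rescale each library; leaving out single libraries gave -0.79 to -0.54. All genes called numbered 6198 to 8916, and the share of calls that were higher was 30.4% from the deposited FPKM, 53.3% under median-of-ratios rescaling, 42.0% under quantile normalization and 54.1% with voom. Relative to the T cell reference genes, Axin2 was called after quantile normalization (0.62). Satb1 lost its call there with a pseudocount of 0.1 (0.56), with a filter of 5 FPKM, without a trended prior or with the replicate number as a block (0.55 in each), with array weights (0.43) and with the CD3 chains as the reference (0.46); the cause was not tested. Leaving out single libraries gave relative values of 0.33 to 0.73 for Satb1, 0.50 to 1.04 for Bach2 and -0.76 to 0.046 for Lef1. With no reference the values were the deposited fold changes, of the opposite sign for Tcf7 (-2.36), Axin2 (-2.11), Bach2 (-1.73), Satb1 (-2.001), Bcl11b (-2.41), Foxo1 (-1.68) and Foxp1 (-0.65) and larger for Lef1 (-2.90). Of 76 other named genes, 61 kept direction and call under every alternative run; Bcl11a, not called, turned to 0.041 with median-of-ratios rescaling and 0.060 with voom. Leaving out single libraries gave -0.57 to 0.11 for Bcl11a, -0.024 to 1.10 for Hbb-bs and -0.17 to 1.10 for Hba-a1, none of them called. Same-numbered libraries had correlated deviations of 0.376, 0.083 and 0.366 for replicates 1 to 3, and differently numbered ones -0.379 to 0.146. The labels do not say whether the numbers pair the samples, so the main fit did not pair them, and a shared batch or animal was not tested. With the replicate number as a block 8857 genes were called against 8253, and all 8 genes kept their calls. All 8 genes had 132 reads or more in every library. Depth limits what the small spreads of Axin2 and Lef1 in S100A4-positive libraries mean, and the 3 libraries per group limit every comparison.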
